A study of Daphnia magna with 27 samples.

Results

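The 250 clones described here are the brightest anonymous cDNAs of the Ene library on a microarray of the water flea Daphnia magna. The array carried 2261 spotted cDNA fragments, called reporters, of which 757 hold the token Ene in their name. All 757 lacked a gene name, 7 had no t value in at least 1 of the 4 deposited comparison tables, and the 250 with the highest mean of the deposited average log2 expression were taken from the other 750. The clones were thus chosen by their average log2 expression, and their level is described without a test. The files pair no clone with a gene, none of the 250 matched the RefSeq gene table, none of 10 keyword lists matched a clone, and no sequence was given. The clones are therefore named by the plate and well in the reporter name: ASP4 C10 stands for EBT_DamaEne_ASP4 C10. What Ene abbreviates could not be read from the labels or files.

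Daphnia magna reproduces clonally in culture, and an adult female carries a brood through each moult cycle. RNA of the whole body therefore mixes ovary, brood, gut, fat cells, muscle and cuticle-forming epidermis, and many abundant transcripts in it follow the moult and egg cycle. Zinc is an essential trace metal that is toxic in excess. Crustaceans bind excess metal with metallothioneins and other ligands, and zinc exposure is known to affect their feeding, growth and reproduction. In bulk samples like these, fewer cells of a type and less RNA per cell cannot be told apart.

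The study followed clone K6 over 3 generations and asked how zinc and a history of zinc exposure changed transcript levels. Controls were kept in modified M4 medium and sampled at 20 days (CtrlF0), 22 days (CtrlF1) and 20 days (CtrlF2), and ZnF0 was exposed to 388 µg/L of zinc and sampled at 23 days. Young of ZnF0 stayed in zinc (Zn(+)F1, 21 days) or moved to control medium (Zn(-)F1, 21 days). In the next generation Zn(+)F2 (21 days) stayed in zinc, Zn(+/-)F2 (22 days) were young of Zn(+)F1 moved to control medium, and Zn(-/-)F2 (22 days) were young of Zn(-)F1 kept in control medium. Each of the 9 groups had 3 samples of 10 pooled adults, and each sample was hybridised against 1 reference pool of 60 daphnids each of 6, 13 and 21 days. Age therefore differed between the groups compared, and age and treatment cannot be told apart where it did. Groups are named as in the labels. No label ties replicates to separate cultures, so p-values measure only the spread between these samples, which may be technical.

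Values were taken as log2 ratios of sample over reference on each array, and every change is a log2 difference, the group named first minus the other. Replicates 1 and 3 of CtrlF0 differed by at most 0.00026 over 2066 reporters and were counted as 1 sample, which leaves 26 arrays. CtrlF0, ZnF0 and CtrlF1 samples were in Cy5 on every array and Zn(+)F1 and Zn(-)F1 samples in Cy3 on every array, while the F2 groups held both dyes. Array medians over all reporters ran from -0.40 to 0.35 in CtrlF2 and Zn(+)F2, below 0 where the sample was in Cy3 and above 0 where it was in Cy5. On the other arrays they ran from -0.033 to 0.072. Replicate 2 of Zn(+)F1 held values for 886 reporters, 243 of them among the 250 clones, and correlated with its fellow replicates at -0.052 and -0.096 over the clones. Replicate 1 of ZnF0 and replicate 3 of CtrlF2, both in Cy5, correlated at -0.32 over all reporters. Replicate 3 of CtrlF2 correlated with its fellow replicates, both in Cy3, at 0.69 and 0.77 over the clones. The labels state the dyes but not the direction of the ratios, and no array was turned.

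**Figure D1:**
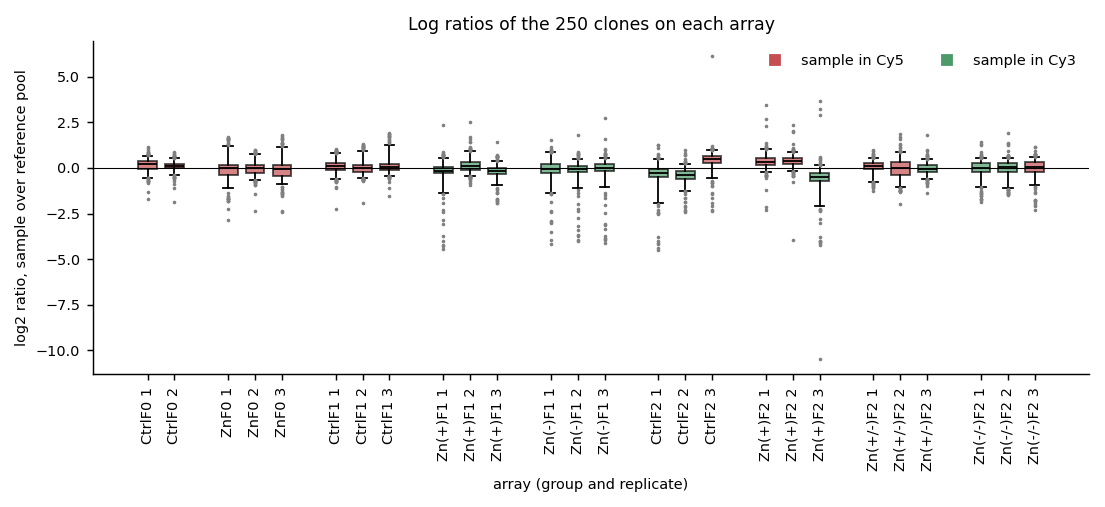
Each box shows the log2 ratios of the 250 clones on 1 array (line: median; box: quartiles; whiskers: 5th and 95th percentile; dots: clones beyond them), with colour for the dye of the sample. Medians lay between -0.48 and 0.47, the lowest on replicate 3 of Zn(+)F2 and the highest on replicate 3 of CtrlF2, and the lowest single clone stood at -10.5.

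The mean of the average log2 expression ran from 8.79 to 15.1 over the 250 clones, with a median of 10.3 against 7.46 over all 2261 reporters. Unnamed clones of the Mol and Rep libraries chosen in the same way had medians of 9.61 and 9.74. The 4 brightest clones were ASP4 A6 at 15.1, ASP7 H2 at 14.7, ASP5 A12 at 14.7 and ASP4 F6 at 14.6. Just inside the limit stood ASP2 G2 at 8.80 and ASP3 G1 at 8.79, and just outside it ASP5 G1 and ASP5 A3, both at 8.79. The clones on either side of the limit were thus close in level. The average expression of a clone moved between the 4 tables by a median of 0.58 and at most 4.83, and by more than 1 in 35 clones.

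Of the 4 brightest clones, ASP7 H2 and ASP5 A12 passed in the zinc table and ASP4 F6 and ASP4 A6 did not. ASP4 F6 lay at 0.28 and 0.21 in CtrlF0 and at 0.14, 0.14 and -0.06 in ZnF0, with no overlap, and its change was -0.14 ± 0.06 in the authors' deposited table (SE from the deposited t, adjusted p = 0.102). The change of ASP4 A6 was -0.20 ± 0.10 (adjusted p = 0.194) in the authors' deposited table, with 0.34 and 0.25 in CtrlF0 and 0.10 on the only ZnF0 array that measured it. ASP7 H2 fell by 1.02 ± 0.22 in the same authors' deposited table (limma adjusted p = 0.00304), with 0.56 on the only CtrlF0 array that measured it and -0.60, 0.01 and -0.85 in ZnF0. ASP5 A12 fell by 0.51 ± 0.15 in the authors' deposited table (limma adjusted p = 0.0342), but no CtrlF0 array and only 1 ZnF0 array held a value for it, at -0.18.

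The first comparison asked what zinc did within the first generation, ZnF0 against CtrlF0. Most of the bright Ene clones that moved were lower in zinc. Of the 250 clones, 147 (58.8%) passed an adjusted p under 0.05 in the authors' deposited table, with 116 lower and 31 higher, where 33.2% of all 2220 reporters tested passed, 16.4% lower and 16.8% higher. The median change of the clones was -0.19 in the authors' deposited table against 0.02 over all reporters tested, and 183 of the 250 lay below 0. Of the 147 called clones, 17 rose and 20 fell by at least 1. The median of the 31 called higher was 1.17 against -0.55 for the 116 called lower, in the authors' deposited table.

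The array values gave fewer calls. All 3 ZnF0 arrays lay below both CtrlF0 arrays in 122 of the 239 clones measured on all 5, and above both in 35, where the groups did not overlap in 48.4% of all reporters (22.3% below, 26.1% above). A limma fit to the array values, with all 26 arrays, 9 groups and a dye term, called 26 of 248 clones, 25 lower and 1 higher, against 4.53% of all reporters (1.27% higher, 3.26% lower). With each array centred on its median it called 63, 60 lower and 3 higher, against 10.8% of all reporters (2.72% higher, 8.11% lower). With only the arrays of ZnF0 and CtrlF0 in the fit it called 30, and there 18 were higher and 12 lower. Leaving out replicate 1 or 3 of ZnF0 or replicate 1 of CtrlF0 left 1 call each, and leaving out replicate 2 of CtrlF0 left 4. The share over all reporters was not worked out for these fits with fewer arrays. Every one of these 26 and 63 clones was also called in the authors' deposited table with the same sign. The degrees of freedom behind the authors' deposited p-values ran from 5.88 to 19.9 over the clones, with a median of 19.9. They include a part that eBayes adds to every reporter alike. Their range alone, however, was wider than the 4 that 6 samples allow, so those p-values count more than the spread between samples. The median SE of the array fit was 2.65 times that of the deposited table.

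ASP8 C1 had the smallest p-value of the clones in the zinc table. Its log2 ratio was 0.27 and 0.26 in CtrlF0 and -0.74, -0.72 and -0.87 in ZnF0. The groups were well apart, and the clone fell by 1.16 ± 0.08 in the authors' deposited table, a 2.23-fold change (adjusted p = 1.27e-09). The limma fit to the array values gave -1.04 ± 0.16 (adjusted p = 0.000903). The reporters whose ratios were most like those of ASP8 C1 over 25 arrays, by Pearson's r over all reporters, were EBT_DamaRep_ASP2 B3 (0.956), EBT_DamaRep_ASP8 F6 (0.954) and EBT_DamaMol_ASP1 A6 (0.947), none of them an Ene clone. These r values describe columns that share arrays and dye.

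The largest falls in zinc were uneven between replicates. ASP6 A7 stood at 0.19 and 0.66 in CtrlF0 and at -2.85, -0.40 and -2.43 in ZnF0. Replicate 2 of ZnF0 was far closer to the controls than replicates 1 and 3, although all 3 lay below both controls. The clone fell by 2.29 ± 0.40 in the authors' deposited table (4.90-fold, adjusted p = 0.000105). ASP3 F2 showed the same unevenness, with 0.15 and 0.57 in CtrlF0 and -2.23, -0.41 and -2.34 in ZnF0. It fell by 2.02 ± 0.33 in the authors' deposited table (4.05-fold, adjusted p = 5.48e-05). In the limma fit to the array values both passed, ASP6 A7 at -2.32 ± 0.56 (adjusted p = 0.0327) and ASP3 F2 at -2.02 ± 0.44 (adjusted p = 0.0209). Over all 250 clones, replicates 1 and 3 of ZnF0 correlated at 0.95 and replicate 2 with them at 0.60 and 0.63.

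The largest rises were those of ASP4 C10 and ASP6 C2. ASP4 C10 stood at -0.81 and -0.70 in CtrlF0 and at 1.63, 0.83 and 1.51 in ZnF0, and rose by 2.18 ± 0.20 in the authors' deposited table (4.55-fold, adjusted p = 6.74e-08). ASP6 C2 stood at -0.69 and -0.86 in CtrlF0 and at 1.50, 0.78 and 1.33 in ZnF0, and rose by 2.08 ± 0.21 in the authors' deposited table (4.23-fold, adjusted p = 2.51e-07). Replicate 2 again had the smallest shift, yet every zinc array lay above both controls. Neither was called by the limma fit to the array values, at 2.08 ± 1.08 for ASP4 C10 (adjusted p = 0.331) and 1.98 ± 1.10 for ASP6 C2 (adjusted p = 0.38).

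**Figure D2:**
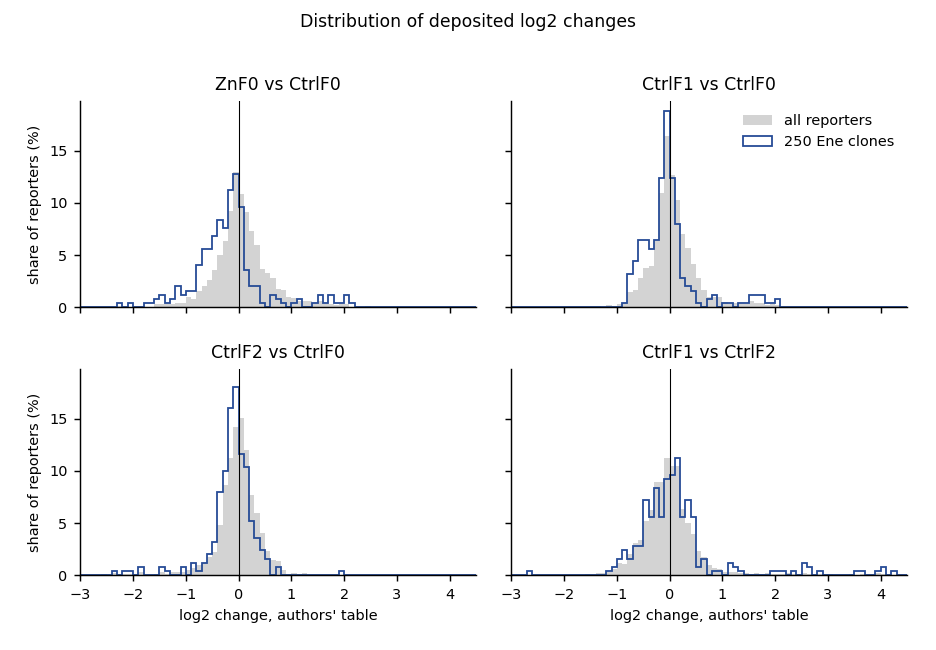
Share of reporters (%) by log2 change in the authors' 4 deposited tables, in bins of 0.1 (grey: all reporters tested; blue line: the 250 Ene clones). In ZnF0 vs CtrlF0 the clones lie further left than all reporters (medians -0.19 and 0.02), and a few clones form a tail above 1 in the zinc table and in both comparisons of CtrlF1.

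The control generations were compared to ask how much transcript levels moved without zinc. Between CtrlF1 and CtrlF0, 106 of the 250 clones passed in the authors' deposited table, with 37 higher and 69 lower, against 25% of all reporters tested (12.1% higher, 12.9% lower). The median change of the 250 clones was -0.07 in that authors' deposited table. Among called clones 17 rose by at least 1, and no clone fell by as much. All 3 CtrlF1 arrays lay below both CtrlF0 arrays in 97 of 244 clones and above both in 29, against 39.5% of all reporters without overlap (19.6% above, 19.9% below). Fitted to the array values, limma called 0 of 248 clones, with 51 at an unadjusted p under 0.05, and 0% of all reporters. With arrays centred it called 20 clones, 2 higher and 18 lower, against 3.71% of all reporters (1.04% higher, 2.67% lower). The same CtrlF0 arrays stand behind this comparison and the zinc comparison, so similar values in the pair are not independent. CtrlF1 was also closer in age to ZnF0 than CtrlF0 was.

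ASP4 C10 and ASP6 C2 were the largest rises here too, by 2.07 ± 0.24 and 2.05 ± 0.22 in the authors' deposited table (limma adjusted p = 2.05e-06 and 9.65e-07). ASP4 C10 stood at 0.49, 1.20 and 1.80 in CtrlF1, and ASP6 C2 at 0.59, 1.10 and 1.69, all above the CtrlF0 arrays. The largest falls were ASP8 C1, by 0.85 ± 0.07, and ASP8 D1, by 0.79 ± 0.06, in the authors' deposited table (limma adjusted p = 1.69e-07 and 1.46e-07). ASP8 D1 stood at 0.33 and 0.15 in CtrlF0 and at -0.55, -0.50 and -0.42 in CtrlF1. In ZnF0 it stood at -0.63, -0.34 and -0.38, and its change there was -0.79 ± 0.08 in the authors' deposited table (limma adjusted p = 1.92e-07).

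Other clones that passed in both tables with the smallest p-values were ASP4 F1, ASP8 H6 and ASP5 D1, all lower. Beside CtrlF0, ASP5 D1 changed by -0.73 ± 0.08 in ZnF0 and by -0.73 ± 0.07 in CtrlF1 in the authors' deposited tables. ASP8 H6 changed by -0.78 ± 0.08 and -0.76 ± 0.07, and ASP4 F1 by -0.70 ± 0.07 and -0.61 ± 0.06, in the authors' deposited tables. No clone passed in opposite directions in these tables (0 of 250). This was not counted over all reporters, and both tables rest on the same CtrlF0 arrays. The 116 clones lower in the zinc table had a median of -0.31 in CtrlF1 vs CtrlF0 and the 31 higher ones a median of 1.14, again in the authors' deposited tables, with the CtrlF0 arrays shared.

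CtrlF2 against CtrlF0, both sampled at 20 days, held the fewest calls of the 4 tables. Of the 250 clones, 50 passed in the authors' deposited table, with 11 higher and 39 lower, against 12.5% of all reporters tested (5.1% higher, 7.39% lower), with 10 called clones lower by at least 1 and no called clone higher by as much. All CtrlF2 arrays lay below the CtrlF0 arrays in 24 of 241 clones and above them in 8, against 17.6% of all reporters (6.51% above, 11.1% below). Fitted to the array values, limma called 0 of 248 clones, with 15 at an unadjusted p under 0.05, against 0.856% of all reporters. With arrays centred it also called 0, with 24 at an unadjusted p under 0.05, against 1.62% of all reporters (0.766% higher, 0.856% lower). The Cy5 array of CtrlF2 counted little in the authors' deposited table: in a least-squares description of the deposited changes over 241 clones its weight was 0.036, against 0.39 and 0.41 for the Cy3 arrays.

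ASP2 D2 and ASP3 C12 fell the most from CtrlF0 to CtrlF2. ASP2 D2 stood at -0.54 and -0.34 in CtrlF0 and at -4.50, -2.38 and -2.37 in CtrlF2, and fell by 2.38 ± 0.36 in the authors' deposited table (5.22-fold, adjusted p = 0.000238). ASP3 C12 stood at -0.52 and -0.40 in CtrlF0 and at -4.01, -2.32 and -2.08 in CtrlF2, and fell by 2.12 ± 0.47 in the authors' deposited table (limma adjusted p = 0.00509). For both clones the arrays of the groups were far apart. The largest rises among called clones were those of ASP4 C7 by 0.71 ± 0.13 and ASP2 H6 by 0.59 ± 0.14 in the authors' deposited table (limma adjusted p = 0.00102 and 0.00852). ASP4 C7 stood at 0.27 and 0.08 in CtrlF0 and at 0.53, 0.73 and 0.88 in CtrlF2.

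CtrlF1 against CtrlF2 gave 130 called clones in the authors' deposited table, with 65 higher and 65 lower, against 30.8% of all reporters tested (14.8% higher, 16% lower). Here 21 called clones were higher by at least 1 and 4 lower. The limma fit to the array values called 53 of 250 clones, 12 higher and 41 lower, against 13% of all reporters (4.32% higher, 8.72% lower). With arrays centred it called 62, 22 higher and 40 lower, against 17.6% of all reporters (8.9% higher, 8.68% lower). Without the dye term it called 29, 22 higher and 7 lower, against 7.43% of all reporters. Without replicate 3 of CtrlF2, the group's only Cy5 array, it called 8, and without any 1 replicate of CtrlF1 between 24 and 28. All CtrlF1 arrays lay above all CtrlF2 arrays in 27 of 246 clones and below them in 28, against 21.9% of all reporters (12.9% above, 8.93% below).

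ASP2 D2 held the largest rise of any clone in the 4 tables. It stood at 0.58, 1.22 and 1.85 in CtrlF1 and at -4.50, -2.38 and -2.37 in CtrlF2, and was higher by 4.20 ± 0.42 in the authors' deposited table, an 18.4-fold difference (adjusted p = 1.06e-06). The limma fit to the array values gave 3.64 ± 0.99 (adjusted p = 0.0241). ASP4 C10 was higher by 4.08 ± 0.44 (16.9-fold, adjusted p = 1.44e-06) in the authors' deposited table. ASP2 A1 was lower, with -1.07, -0.63 and -1.12 in CtrlF1 and 0.20, -0.44 and 0.36 in CtrlF2. It fell by 1.12 ± 0.35 in the authors' deposited table (limma adjusted p = 0.021), and by 1.39 ± 0.26 in the limma fit to the array values (adjusted p = 0.00352).

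ASP3 B8 had the largest fall in that table, but its ratio went with the dye. Its change in the authors' deposited table was -2.68 ± 0.37 (6.42-fold lower in CtrlF1, adjusted p = 2.58e-05). Its arrays stood at -2.23, -1.92 and -1.56 in CtrlF1, all in Cy5, and in CtrlF2 at 0.74 and 0.13 in Cy3 and -0.80 in Cy5. In Zn(+)F2 it stood at -2.15 and -3.94 in Cy5 and 3.23 in Cy3, and on every Zn(+)F1 and Zn(-)F1 array, all in Cy3, it was between 0.68 and 2.32. Replicate 2 of Zn(+/-)F2, in Cy5, was the exception at 0.03. The limma fit with the dye term gave 0.17 ± 0.80 (adjusted p = 0.921), opposite in sign to the authors' deposited table.

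The zinc comparison and CtrlF1 against CtrlF2 share no array, so their lists can be set side by side. Of the 116 clones lower in zinc and the 65 lower in CtrlF1 than in CtrlF2, 56 were the same, 48.3% of the former list and 86.2% of the latter, by the authors' deposited tables. Of the 31 higher in zinc and the 65 higher in CtrlF1, 25 were the same, 80.6% and 38.5%. Opposite directions were rarer, with 1 clone higher in zinc and lower in CtrlF1, and 8 clones lower in zinc and higher in CtrlF1. Since 116 of all 250 clones were lower and 31 higher in zinc, many lower clones would be shared with any list. The shares should be read beside these counts, and whether the overlap exceeds them was not tested. ZnF0 and CtrlF1 were sampled at 23 and 22 days and their controls here, CtrlF0 and CtrlF2, at 20 days; the part of age in this overlap was not tested.

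A group of 14 clones held most of the large rises. All 14 were among the 17 called clones that rose by at least 1 in ZnF0 in the authors' deposited table. They were picked after their values were seen, as the clones below -1 on all 3 Zn(-)F1 arrays, so their values there are a description. The limit takes the Zn(-)F1 ratios as sample over reference, a direction that could not be checked. They are ASP1 A10, E7, G11 and H1, ASP2 D2, E2 and F2, ASP3 C12, E6, E9 and H8, ASP4 C10 and D11, and ASP6 C2. The same limit held 31 of the 250 bright Mol clones, 8 of the 250 bright Rep clones and 79 of all 2261 reporters.

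The medians of the 14 clones moved up and down together over the groups. They were -0.53 and -0.39 on the CtrlF0 arrays and 1.54, 0.78 and 1.34 in ZnF0. They were 0.51, 1.12 and 1.62 in CtrlF1, and -2.46, -1.64 and -1.17 in CtrlF2. The clones were thus below the reference pool in CtrlF0 and CtrlF2 and above it in ZnF0 and CtrlF1, with no overlap of the medians. In the authors' deposited tables all 14 were called higher in ZnF0 than in CtrlF0 (median 1.76, 3.39-fold), in CtrlF1 than in CtrlF0 (median 1.66) and in CtrlF1 than in CtrlF2 (median 2.74, 6.67-fold), and 11 of 14 were called lower in CtrlF2 than in CtrlF0 (median -1.22). The limma fit to the array values called 9 of 14 higher in CtrlF1 than in CtrlF2 and 0 of 14 in the comparisons with CtrlF0; the background percentages are those given above.

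In later generations with a zinc history these 14 clones were mostly below the reference pool, with the ratios taken as deposited. The direction of the ratios was assumed in all these groups. With the Zn(+)F1 and Zn(-)F1 arrays turned in sign, the clones would stand on the other side of the pool there. On the Zn(-)F1 arrays their medians were -2.40, -2.55 and -3.10. In Zn(+)F1 they were -2.63 and -1.54 on replicates 1 and 3, and 0.06 on replicate 2, the array with few values. The Zn(+)F2 arrays gave -0.25 and 0.00 in Cy5 and -2.90 in Cy3. Zn(+/-)F2 gave -0.92, -0.33 and -0.61, and Zn(-/-)F2 gave 0.22, -1.11 and -1.76, the widest spread of a group returned to control medium. The other 236 clones had medians between -0.46 and 0.49 on all 26 arrays.

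**Figure D3:**
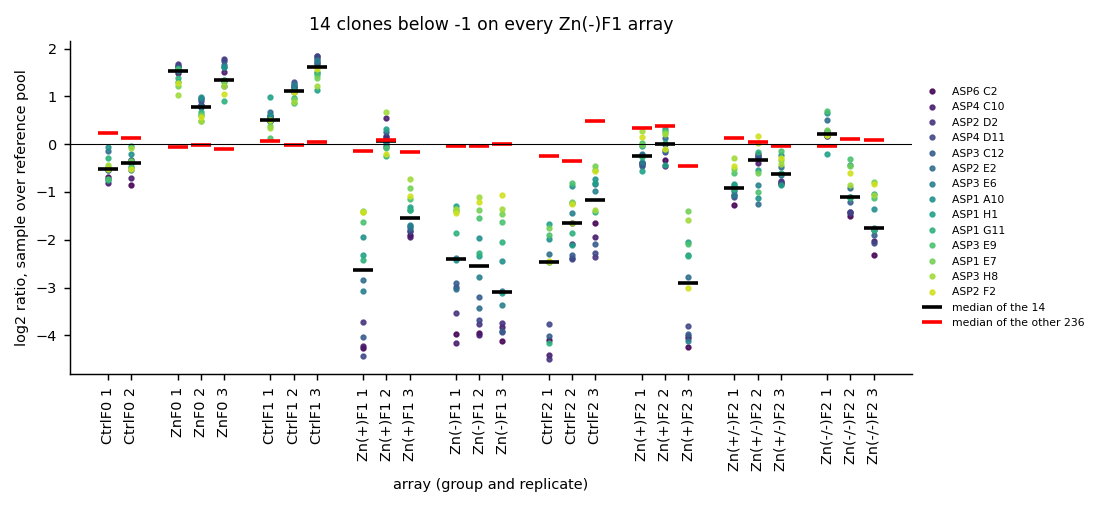
Log2 ratio of the 14 clones on each of 26 arrays (dots, coloured by clone), with their median (black bars) and the median of the other 236 clones (red bars). The 14 clones lie above 0 in ZnF0 and CtrlF1, with medians from 0.51 to 1.62, and below 0 in CtrlF0, Zn(-)F1 and CtrlF2, with medians from -3.10 to -0.39. The direction of the Zn(+)F1 and Zn(-)F1 ratios could not be checked.

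ASP4 D11, ASP2 D2 and ASP1 H1 of this group, and ASP5 D4 outside it, led the 21 clones that passed in all 4 of the authors' deposited tables. ASP4 D11 stood at -0.73 and -0.39 in CtrlF0, 1.63, 0.90 and 1.73 in ZnF0, 0.48, 1.30 and 1.84 in CtrlF1, and -3.76, -2.40 and -2.28 in CtrlF2. ASP1 H1 stood at -0.76 and -0.03 in CtrlF0, 1.29, 0.61 and 1.34 in ZnF0, 0.99, 0.96 and 1.12 in CtrlF1, and -1.67, -2.12 and -0.82 in CtrlF2. In both clones the ZnF0 and CtrlF1 arrays lay above the CtrlF0 arrays and the CtrlF2 arrays below them. ASP5 D4 rose by 1.03 ± 0.18 in ZnF0 (adjusted p = 0.000153) and by 1.05 ± 0.19 in CtrlF1 (adjusted p = 0.000327), and fell by 1.37 ± 0.24 in CtrlF2 (adjusted p = 0.000599), all against CtrlF0 in the authors' deposited tables. A further 54 clones passed in none of the 4 tables. The 21 and the 54 were not set beside such counts over all reporters, and the comparisons with CtrlF0 share its arrays.

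The F1 groups with a zinc history were compared with CtrlF1 to ask whether the zinc response held in the next generation. These comparisons use the limma fit to the array values, since the authors' tables cover 4 other pairs. All Zn(+)F1 and Zn(-)F1 samples were in Cy3 and all CtrlF1 samples in Cy5, so the dye was separated from the groups only through the F2 arrays. Zn(+)F1 against CtrlF1 called 46 of 250 clones, 45 higher and 1 lower, against 13.6% of all reporters (12.8% higher, 0.803% lower). The median over all reporters was 0.37 in this fit and 0.02 with arrays centred, so changes should be read beside it; the median of the clones was 0.32 and -0.05. With arrays centred 22 clones were called, 14 higher and 8 lower, against 8.92% of all reporters (5.76% higher, 3.17% lower). Without the dye term 9 were called, 4 higher and 5 lower, against 4.69% of all reporters. With array quality weights 65 were called, 34 higher and 31 lower. Without replicate 2 of Zn(+)F1 38 were called, 32 higher and 6 lower, and without its replicate 1 22, all higher.

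Zn(-)F1 against CtrlF1 called 55 of 249 clones, 45 higher and 10 lower, against 12.3% of all reporters (10.3% higher, 2.01% lower). With arrays centred it called 41, 23 higher and 18 lower, against 10.1% of all reporters (4.9% higher, 5.21% lower). Without the dye term it called 26, 8 higher and 18 lower, against 6.55% of all reporters. With array quality weights it called 71, 43 higher and 28 lower. The split between higher and lower clones therefore depends on the scaling. The medians of the clones were 0.35 and, with arrays centred, 0.00, against 0.33 and -0.02 over all reporters. The direction of the Zn(+)F1 and Zn(-)F1 ratios was not stated and could not be checked, as each group held 1 dye and stands in no deposited comparison. With their sign turned, 45 and 60 clones were called, 44 and 57 of them higher.

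ASP2 A1 rose most among the called clones in both F1 comparisons. It stood at -1.07, -0.63 and -1.12 in CtrlF1, at 0.68, 0.44 and 0.59 in Zn(+)F1 and at -0.63, 0.31 and 0.24 in Zn(-)F1. The Zn(+)F1 arrays lay clear of the control, and those of Zn(-)F1 reached it in replicate 1. The limma changes were 2.13 ± 0.29 (adjusted p = 0.000683) and 1.54 ± 0.29 (adjusted p = 0.00295), and 1.76 and 1.19 with arrays centred. With the sign of the Zn F1 arrays turned they were 0.99 and 1.59, and without the dye term the change in Zn(-)F1 was 0.92 and not called (limma adjusted p = 0.0765). ASP8 C3 rose by 1.57 ± 0.30 in Zn(+)F1 (limma adjusted p = 0.00297), with -1.11, -0.34 and 0.02 in CtrlF1 and 0.45, 0.20 and 0.59 in Zn(+)F1. Its change was not called without the dye term (0.89, limma adjusted p = 0.121), with only the arrays of these groups (0.89, adjusted p = 0.0869) or with the sign turned (0.74, adjusted p = 0.115). ASP5 C6 rose by 1.49 ± 0.40 in Zn(-)F1 (limma adjusted p = 0.0213; 0.0921 with arrays centred and 0.153 without the dye term).

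ASP1 E7 was the only clone called lower in Zn(+)F1, by 1.66 ± 0.51 (limma adjusted p = 0.0365), with 0.39, 0.94 and 1.38 in CtrlF1 and -1.40 and -0.92 on the 2 Zn(+)F1 arrays that measured it. Its call was lost without replicate 2 or 3 of CtrlF1 or replicate 1 or 3 of Zn(+)F1 (limma adjusted p from 0.0637 to 0.17). ASP6 C2 and ASP4 C10 had the largest falls in Zn(-)F1, with limma changes of -4.26 ± 1.22 and -4.25 ± 1.21 (adjusted p = 0.0291 and 0.028). ASP4 C10 stood at -4.16, -3.99 and -3.82 in Zn(-)F1 against 0.49, 1.20 and 1.80 in CtrlF1. With the Zn F1 arrays turned in sign, ASP1 E7, ASP6 C2 and ASP4 C10 were higher instead.

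The groups of the F1 comparisons hold no array of ZnF0 or CtrlF0. The F1 calls, however, come from the limma fit to all arrays. The ZnF0 and CtrlF0 arrays thus enter the spread behind the F1 p-values, and the F1 and zinc lists are not independent. Of the 116 clones lower in ZnF0 and the 45 higher in Zn(+)F1, 38 were the same, 32.8% and 84.4%. For Zn(-)F1 the counts were the same, 38 of 116 and of 45. With arrays centred, 12 of the 14 higher in Zn(+)F1 (10.3% and 85.7%) and 21 of the 23 higher in Zn(-)F1 (18.1% and 91.3%) were among the 116. Without the dye term 3 of 4 and 8 of 8 were. With the Zn F1 arrays turned in sign, 32 of 44 (27.6% and 72.7%) and 31 of 57 (26.7% and 54.4%) were. None of the 116 was called lower in either F1 comparison (0 of 1 and 0 of 10 clones called lower). The 10 clones called lower in Zn(-)F1 were among the 31 higher in ZnF0 (32.3%); with arrays centred 16 of 18 were (51.6% and 88.9%), and with the sign turned 0 of 3. ASP8 C1 serves as the example with the ratios as deposited, at -0.74, -0.72 and -0.87 in ZnF0 and -0.56, -0.42 and -0.55 in CtrlF1, but at 0.46, 0.15 and 0.04 in Zn(+)F1 and 0.11, 0.14 and 0.18 in Zn(-)F1. The CtrlF1 arrays thus stood near the ZnF0 arrays, and the zinc F1 arrays near CtrlF0 at 0.27 and 0.26. Against CtrlF1 its changes were 1.29 ± 0.17 (limma adjusted p = 0.000683) and 1.22 ± 0.17 (limma adjusted p = 0.00138). Both were larger than any gap between the zinc F1 and CtrlF1 arrays just given, since the fit includes a dye term. The medians over all reporters were 0.37 and 0.33 in these comparisons, and 0.0055 and -0.0079 without the dye term.

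In the F2 generation few clones separated Zn(+)F2 or Zn(+/-)F2 from CtrlF2. Zn(+)F2 called 4 of 250 clones, 1 higher and 3 lower, against 3.19% of all reporters (2.3% higher, 0.886% lower). Zn(+/-)F2 called 3, 1 higher and 2 lower, against 1.46% (0.974% higher, 0.487% lower), in the limma fit to the array values. With arrays centred the counts were 11 (3 higher, 8 lower) and 4 (1 higher, 3 lower), against 6.11% (3.59% higher, 2.52% lower) and 2.83% (2.04% higher, 0.797% lower). The calls in Zn(+)F2 with the largest changes came from clones whose replicates were far apart. ASP3 H11, called higher by 2.69 ± 0.57 (limma adjusted p = 0.0138), stood at 3.43, 0.26 and 3.65 against 1.10, -0.50 and -0.47 in CtrlF2. ASP1 A3, called lower by 4.09 ± 0.98 (limma adjusted p = 0.0297), stood at 6.14 on replicate 3 of CtrlF2 and at 1.27 and 0.32 on the others. ASP2 H6 fell by 0.83 ± 0.21 (limma adjusted p = 0.0346), with 0.04, -0.13 and -0.71 in Zn(+)F2 against 0.11, 0.69 and 0.68 in CtrlF2.

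ASP4 C7 and ASP1 B11 lay apart from CtrlF2 on every array of Zn(+/-)F2. In Zn(+/-)F2 ASP4 C7 stood at 0.03, 0.05 and 0.08 against 0.53, 0.73 and 0.88 in CtrlF2, without overlap, and fell by 0.72 ± 0.14 (limma adjusted p = 0.0126). ASP1 B11 stood at 0.34, 0.69 and 0.04 in Zn(+/-)F2 and at 0.29, 0.42 and 0.31 in Zn(-/-)F2, against -1.63, -0.91 and -0.25 in CtrlF2. It rose by 1.06 ± 0.23 (limma adjusted p = 0.02) and 1.27 ± 0.22 (limma adjusted p = 0.00131), against the same control arrays. ASP6 C11 fell by 0.94 ± 0.22 in Zn(+/-)F2 (limma adjusted p = 0.0388).

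Zn(-/-)F2, whose mothers had already been returned to control medium, held more calls against CtrlF2 than the other F2 groups, both among the clones and over all reporters. The limma fit called 28 of 250 clones (11.2%), 9 higher and 19 lower, near the 9.93% of all reporters (4.92% higher, 5.01% lower). Of the bright Rep clones it called 64 of 249 (25.7%), and of the bright Mol clones 15 of 250. With only the arrays of the groups compared it called 0 of the 250 Ene clones. With arrays centred the fit called 54 of the 250 clones, 21 higher and 33 lower, against 17.4% of all reporters (6.78% higher, 10.6% lower). Without the dye term it called 18 (7.2%), 2 higher and 16 lower, against 7.31% of all reporters. The balance turned without replicate 3 of Zn(-/-)F2, where 70 clones were called, 54 higher and 16 lower, and without replicate 3 of CtrlF2, where 36 were called, 26 higher and 10 lower. Without its replicate 1, 7 were called, without its replicate 2, 13, and without replicate 1 of CtrlF2, 11. ASP7 G1 and ASP8 F5 fell the most among called clones. ASP7 G1 stood at -1.74, -1.34 and -0.72 against 0.47, -0.21 and 1.02 in CtrlF2, and fell by 1.69 ± 0.38 (limma adjusted p = 0.00732). ASP8 F5 stood at -1.72, -1.31 and -0.67 against 0.61, -0.25 and 1.00, and fell by 1.69 ± 0.40 (limma adjusted p = 0.0106).

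ASP7 G1 and ASP8 F5 had close ratios in every group and had both fallen in first-generation zinc, ASP7 G1 by 1.60 ± 0.27 and ASP8 F5 by 1.71 ± 0.27 in the authors' deposited table (limma adjusted p = 6.98e-05 and 4.25e-05). Whether they carry the same cDNA cannot be read from the files used here. Of the 116 clones lower in ZnF0 and the 19 lower in Zn(-/-)F2, 17 were the same, 14.7% and 89.5%. The groups behind these lists share no array. The ZnF0 and CtrlF0 arrays nevertheless enter the spread in the limma fit that called the 19, so the lists are not independent. With arrays centred the list lower in Zn(-/-)F2 held 33 clones, of which 28 were among the 116, 24.1% and 84.8%. ASP1 F11 rose in Zn(-/-)F2 by 0.85 ± 0.26 (limma adjusted p = 0.0418), with 0.78, 1.30 and 0.24 against -0.28, -0.31 and 0.35 in CtrlF2, so the arrays overlapped.

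**Figure D4:**
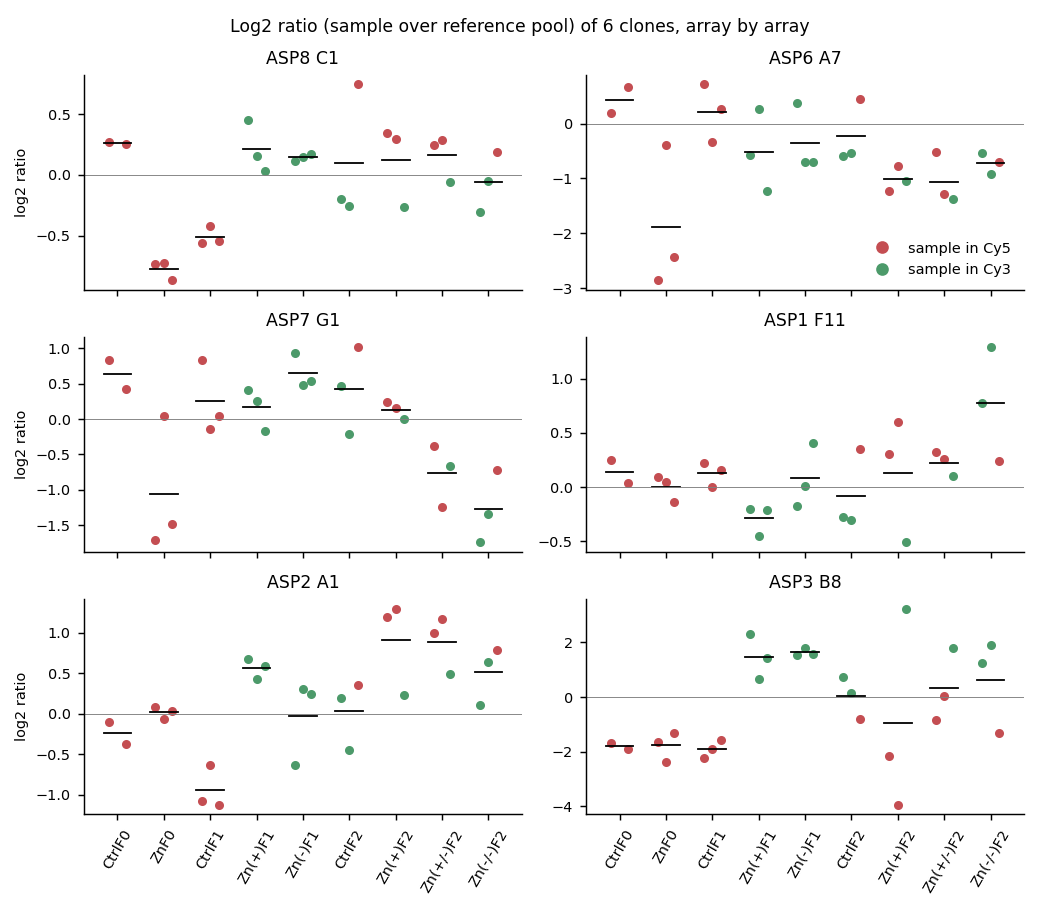
Log2 ratio of 6 clones on each array by group (dots, coloured by the dye of the sample; black bars: group means). ASP8 C1 is low in ZnF0 and CtrlF1, ASP6 A7 falls to -2.85 and -2.43 on 2 of 3 ZnF0 arrays, ASP7 G1 is low in ZnF0 and Zn(-/-)F2, and the sign of ASP3 B8 goes with the dye in most groups.

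Position in the library was not part of the rule, and the clones were spread unevenly over it. Plates 1 to 4 held 93 of the 250 clones among 375 Ene reporters and plates 5 to 8 held 157 among 382. On plates 5 to 8, 89 of 157 clones were called lower in ZnF0 and 8 higher in the authors' deposited table, with a median change of -0.31. On plates 1 to 4, 27 of 93 were called lower and 23 higher, with a median of -0.06 in the authors' deposited table. Median changes by plate ran from 0.21 on plate 2 to -0.41 on plate 8. Of the 14 clones that moved together, 13 came from plates 1 to 4 and 1 from plate 6. Clones of a library can repeat 1 transcript, so the clones of a plate, and the 14, are not independent measurements.

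**Figure D5:**
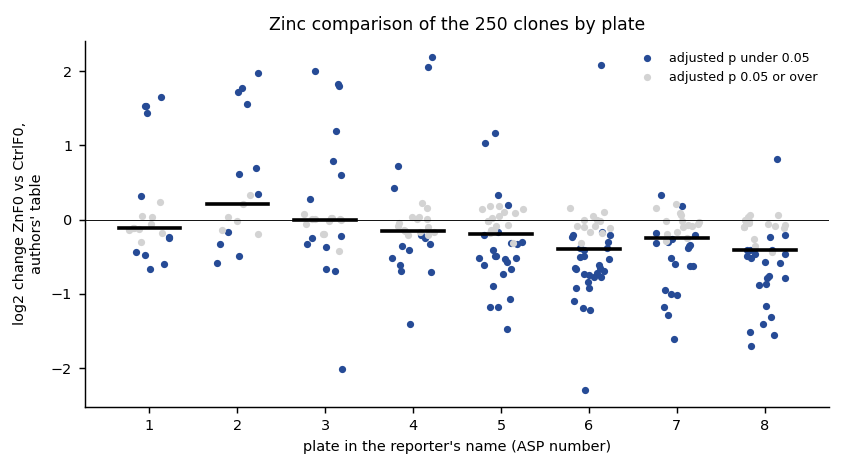
Log2 change in ZnF0 vs CtrlF0 in the authors' deposited table for the 250 clones, by plate number (blue: adjusted p under 0.05; grey: not; bars: plate medians). The medians run from 0.21 on plate 2 to -0.41 on plate 8, and the clones above 1 lie mostly on plates 1 to 4.

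Calls by level were compared within the clones. Of the 50 brightest clones, 27 passed in the zinc table, 26 lower and 1 higher, and of the 50 dimmest also 27, 22 lower and 5 higher, in the authors' deposited table. The medians were -0.19 and -0.20. In CtrlF1 vs CtrlF0, 12 of the 50 brightest and 23 of the 50 dimmest passed in the authors' deposited table. Among bright clones of the other libraries, 128 of 250 Mol clones passed in the zinc table (55 higher, 73 lower) and 123 of 250 Rep clones (53 higher, 70 lower), against 147 of 250 Ene clones, in the authors' deposited table. By the same tables, 117 Mol and 86 Rep clones passed in CtrlF1 vs CtrlF0, against 106 Ene clones. In CtrlF2 vs CtrlF0 59 and 36 passed against 50, and in CtrlF1 vs CtrlF2 129 and 88 against 130. Called rises of at least 1 in zinc numbered 34 in Mol, 2 in Rep and 17 in Ene clones, and such falls 10, 9 and 20. The difference between the libraries was not tested.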

How the data were processed

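Transcript levels were measured in 27 samples of 9 groups on 2-colour cDNA arrays against a common reference pool. The authors made 4 comparison tables with limma (version not given), per the submitters' processing notes, and deposited log2 changes, average log2 expression, t and B scores, p-values and adjusted p-values. They also deposited 1 table of log ratios per array, with log base, centring and direction not stated. The weights of single arrays in the deposited log2 changes gave log2 and sample over reference for the CtrlF0, ZnF0 and CtrlF1 arrays, in Cy5, and for the Cy3 arrays of CtrlF2. Replicate 3 of CtrlF2 had weights near 0, which do not give its direction, and the other groups stand in no deposited comparison; the same direction is assumed for them and no array was turned. Background correction, normalization and spot averaging were not stated in the labels or headers. The members, gene lists and tests were chosen with earlier results of these data known.

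A clone was called at an adjusted p under 0.05 (Benjamini-Hochberg). SEs of the authors' tables were computed as change over t, and degrees of freedom recovered from t and p. The direction of the tables was taken from their names; weighted sums of the array values carry the same direction. The other comparisons, and as an alternative added after seeing the data the 4 deposited ones, were fitted with limma 3.58.1 in R 4.3.3 on the deposited log2 ratios of all reporters: 26 arrays (the identical CtrlF0 pair averaged), 9 groups and a dye term, eBayes, tested on simulated data. Of 2261 reporters, 756 had values on all arrays; missing values were left out and none imputed. The number of arrays limits the precision. Tables were otherwise handled with Python 3.11.15 and pandas 2.3.3.

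Named clones are, per comparison, the 2 called clones with the largest rise and the 2 with the largest fall; the 4 brightest; 2 on each side of the limit; up to 6 called alike and up to 4 called oppositely in ZnF0 vs CtrlF0 and CtrlF1 vs CtrlF0; up to 4 called in all 4 tables; and the 3 reporters most like the clone with the smallest zinc p. The 10 keyword lists (yolk, metal binding, haemoglobin, digestion, cuticle, ribosome and translation, respiration and energy, glycolysis, stress, cytoskeleton and muscle) matched 0 clones each. One array titled ZnF1 was placed in Zn(+)F1 by its zinc exposure label. Replicate numbers were checked for pairing by Spearman's correlation of deviations from group means. Zn(-)F1 and CtrlF1 gave 0.21, 0.14 and 0.13, while in every other comparison at least 1 number was below 0.1. The main fit held no pairing term in any comparison, Zn(-)F1 against CtrlF1 included. The replicate number entered only as a block in an alternative fit.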

Additional observations from a re-analysis of the deposited data

Results flagged for a closer look

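The zinc difference of the F1 generation (Zn(+)F1 minus CtrlF1) differed from that of the first generation (ZnF0 minus CtrlF0) in 67 of 248 clones by the interaction term of the limma fit to the array values, 60 with a higher and 7 with a lower difference in F1, against 14.3% of all reporters (11.7% higher, 2.55% lower). With arrays centred the count was 70, 52 higher and 18 lower, against 15.4% (9.38% higher, 6.06% lower). Without the dye term it was 37, 21 higher and 16 lower, against 7.56% of all reporters. Without replicate 2 of Zn(+)F1 it was 75, 58 higher and 17 lower. The bright clones of the other libraries gave similar shares, 62 of 250 Mol clones (24.8%) and 58 of 247 Rep clones (23.5%). With arrays centred 69 Mol clones (27.6%) and 49 Rep clones (19.8%) were called. The median of the term over all reporters was 0.38 and, without the dye term, -0.0093. Over the Ene clones it was 0.57 and 0.10. These counts rest on the direction of the Zn(+)F1 ratios, which could not be checked. The same term for the F2 generation (Zn(+)F2 minus CtrlF2, less the first-generation difference) called 2 clones, against 1.31% of all reporters. ASP2 H2 had an F2 minus F0 difference of -1.1522 (limma adjusted p = 0.0385), with 0.57 and -0.01 in CtrlF0 and 0.92, 0.81 and 1.15 in ZnF0, against 0.62, 1.00 and 0.77 in CtrlF2 and 0.61, 0.41 and -0.03 in Zn(+)F2. ASP8 C1 had one of 0.8821 (limma adjusted p = 0.0421), with -0.20, -0.26 and 0.75 in CtrlF2 and 0.34, 0.30 and -0.26 in Zn(+)F2. Without the dye term its adjusted p was 0.204.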

How the results depend on the processing

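Of 50 changes of named clones in the authors' tables, centring each table kept all on the same side of the threshold with the same sign, and array values kept 17, lost the call of 30 and reversed 3: ASP3 B8 in CtrlF1 vs CtrlF2 (0.17), and ASP8 C1 (0.21) and ASP8 H6 (0.48) in CtrlF2 vs CtrlF0, neither of the latter called. The 4 deposited comparisons, in the order ZnF0 vs CtrlF0, CtrlF1 vs CtrlF0, CtrlF2 vs CtrlF0 and CtrlF1 vs CtrlF2, called 147, 106, 50 and 130 clones. With t divided by its robust SD they called 50, 55, 9 and 47, with limma on the array values 26, 0, 0 and 53, and with a change of at least 1 as well 37, 17, 10 and 25. At an adjusted p under 0.01 CtrlF2 vs CtrlF0 called 20.

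The array fits called 26, 0, 0 and 53 clones in those comparisons, and 46, 55, 4, 3 and 28 in Zn(+)F1, Zn(-)F1, Zn(+)F2, Zn(+/-)F2 and Zn(-/-)F2 against the control of their generation. Counts that moved by over 1.5 times were as follows. At an adjusted p under 0.01, ZnF0 called 1, CtrlF1 vs CtrlF2 11, Zn(+)F1 12, Zn(-)F1 20, Zn(+)F2 0, Zn(+/-)F2 0 and Zn(-/-)F2 9. Without the dye term ZnF0 called 3, CtrlF1 vs CtrlF2 29, Zn(+)F1 9, Zn(-)F1 26 and Zn(-/-)F2 18. In the same order, 0.997%, 7.43%, 4.69%, 6.55% and 7.31% of all reporters were called. With arrays centred ZnF0 called 63, CtrlF1 vs CtrlF0 20, Zn(+)F1 22, Zn(+)F2 11 and Zn(-/-)F2 54. With array quality weights ZnF0 called 75, CtrlF1 vs CtrlF0 27, CtrlF2 vs CtrlF0 2, Zn(+)F2 14, Zn(+/-)F2 7 and Zn(-/-)F2 65, of which 56 were higher, while CtrlF1 vs CtrlF2 called 36, of which 26 were higher. The totals of Zn(+)F1 and Zn(-)F1 moved less with these weights, but their split changed. Zn(+)F1 called 65 (34 higher, 31 lower) and Zn(-)F1 71 (43 higher, 28 lower). With reporters measured on all arrays CtrlF1 vs CtrlF0 called 1, Zn(+)F1 30 and Zn(+)F2 0. With only the arrays of the groups compared, without the dye term in F1 where each group holds 1 dye, Zn(+)F1 called 24 (9 higher, 15 lower), Zn(-)F1 98 (44 higher, 54 lower), Zn(+)F2 0, Zn(+/-)F2 0 and Zn(-/-)F2 0; ZnF0 called 30, but 18 of them higher. With both copies of the identical CtrlF0 array ZnF0 called 58, CtrlF1 vs CtrlF0 10 and CtrlF2 vs CtrlF0 2. This alternative, the turned sign below and the array fits of the deposited comparisons were added after seeing the data.

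Leaving out 1 replicate at a time gave 1 to 31 calls in ZnF0, 0 to 0 in CtrlF1 vs CtrlF0, 0 to 1 in CtrlF2 vs CtrlF0, 8 to 60 in CtrlF1 vs CtrlF2, 22 to 38 in Zn(+)F1, 31 to 64 in Zn(-)F1, 3 to 12 in Zn(+)F2, 0 to 6 in Zn(+/-)F2 and 7 to 70 in Zn(-/-)F2. Zn(+)F1 called 23, 24 and 25 without replicates 1, 2 and 3 of CtrlF1. Zn(-)F1 called 33 and 32 without replicates 2 and 3 of CtrlF1, and 36, 36 and 31 without its own. Zn(+)F2 called 7 without replicate 3 of CtrlF2 and 12 without its own replicate 3. Zn(+/-)F2 called 1 and 6 without replicates 1 and 2 of CtrlF2, and 0 and 1 without its own replicates 2 and 3. With the replicate number as a block ZnF0 called 4 and Zn(-)F1, the comparison with paired numbers, 46; the block moved no other count by over 1.5 times. With the Zn(+)F1 and Zn(-)F1 arrays turned in sign, ASP1 E7 (0.65), ASP6 C2 (3.76) and ASP4 C10 (3.72) were higher and ASP5 C6 (-0.25) lower. ASP1 E7, ASP5 C6, ASP6 C2, ASP4 C10, ASP1 A3, ASP2 H6, ASP1 B11 (Zn(+/-)F2), ASP6 C11, ASP4 C7, ASP1 F11, ASP7 G1 and ASP8 F5 each lost the call given for them without at least 1 replicate of the groups compared. The causes of these moves were not tested. No share over all reporters was worked out for quality weights, the robust SD, fewer arrays, turned signs or both CtrlF0 copies. Counts from those settings show only how the number of clones moved. The number of arrays, 2 or 3 in a group, limits the precision of all these counts.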
